A study of Homo sapiens with 20 samples.

Results

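The genes described here are 43 of the 57500 genes counted in the series, a set of endoplasmic reticulum (ER) chaperones, oxidoreductases and ER-associated degradation (ERAD) genes together with the sensors and transcription factors that control them. They were chosen by name, from the known function of their products, and the measured values took no part in that choice, although earlier results of these data were known. They comprise 7 members of the HSP70 and HSP90 systems and their cofactors, 4 J-domain proteins, 3 genes of the lectin chaperone cycle, 9 disulfide and proline enzymes, 12 ERAD genes, 2 translocon subunits and 6 sensors and transcription factors. All 43 were found by Ensembl identifier, and all 43 passed the filter on low counts in every comparison. RNA was sequenced from NTERT cells, a line of human keratinocytes immortalised with telomerase, in 4 groups of 5 samples. WT cells carried a control guide RNA and GCN2KO cells were a pool, not a clone, edited with CRISPR/Cas9 in EIF2AK4, the gene of the eIF2α kinase GCN2. Cells of both genotypes were differentiated into sheets with serum and calcium and were then left unwounded or collected 6 h after high-density wounding (HDW), in which parallel scratches made with a multichannel pipettor bring more of the cells close to a wound edge. The replicates are 5 plated samples of each group. The study made pools with a guide for exon 2 or for exon 12. It does not say which guide, or how many pools, the sequenced samples came from. The p-values measure the spread between samples and are not taken to measure that between independently edited pools.

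Proteins that enter the secretory pathway fold in the ER lumen, where HSP70-type and lectin chaperones hold unfolded chains, protein disulfide isomerases form and rearrange their disulfide bonds, and ERAD returns terminally misfolded chains to the cytosol for destruction. Unfolded protein in the lumen is sensed by IRE1α (the product of ERN1), ATF6 and PERK (the product of EIF2AK3), and the resulting programme of transcription is the unfolded protein response (UPR). IRE1α splices the XBP1 mRNA, cleaved ATF6 moves to the nucleus, and both factors raise the transcription of chaperone and ERAD genes. Gene-level counts of this kind do not tell spliced from unspliced XBP1 mRNA, nor cleaved from full-length ATF6. In skin, keratinocytes pass matrix and adhesion proteins through this pathway. In bulk RNA of this kind, fewer cells with a gene on and less RNA per cell cannot be told apart.

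The 20 libraries held 14083504 to 34611570 counts, with a median of 32243580.5. EIF2AK4 had 4355 ± 149 normalized read counts (mean ± SD, n = 5 here and below) in WT unwounded cells, 4194 ± 129 in WT cells after HDW, 894 ± 62 in GCN2KO unwounded cells and 874 ± 66 in GCN2KO cells after HDW, so the labels of genotype held in all 20 libraries. A normalized read count is the deposited count divided by the library's TMM effective size relative to the mean of the 20 libraries. Of 8 keratinocyte markers 7 had a mean over 50 in every group, and their summed level was 398838 to 476189 in GCN2KO unwounded and 429752 to 447013 in WT unwounded libraries. After HDW it was 477874 to 512708 in WT and 507866 to 543684 in GCN2KO libraries. These sums combine opposite differences between the unwounded genotypes. The basal-layer genes COL17A1 (means of 82941 in WT and 32321 in GCN2KO cells), KRT14 (63316 and 35134) and ITGA6 (41392 and 24861) had lower means in GCN2KO cells. TP63 (12016 and 8346) was lower too, but the basal keratin KRT5 (233782 and 329191) was higher. The cornified-envelope precursor IVL (3126 and 11072) and KRT10 (1261 and 1468) also had higher means. After HDW IVL had means of 4464 in WT and 17349 in GCN2KO cells, while the differentiation keratin KRT1 had a mean of at most 22.4 in each group. The summed level of 5 fibroblast markers was 899 to 1037 in WT unwounded, 755 to 851 in WT HDW, 664 to 884 in GCN2KO unwounded and 704 to 910 in GCN2KO HDW libraries, most of it COL1A1. That of 5 leukocyte markers was 1587 to 1820, 842 to 989, 606 to 1218 and 386 to 968 in the same order, most of it CD14, and the pan-leukocyte PTPRC was at 0 in 3 groups with a mean of 0.338 in GCN2KO unwounded cells. That of 5 melanocyte markers was 130 to 171, 174 to 209, 346 to 512 and 381 to 642, with MITF the largest term and the defining TYR at 0 in every group. The sum of 4 endothelial markers was at most 37.5. The part of these markers, the keratinocyte ones included, in the results was not tested.

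Some libraries stood apart from the others of their group across these genes. GCN2KO HDW replicate 5 was the lowest of its group for 38 of 43 genes and GCN2KO HDW replicate 1 the highest for 29. WT HDW replicate 1 was the lowest for 33 and WT HDW replicate 2 the highest for 37. In the unwounded groups WT replicates 1 and 3 were the lowest for 20 and 21 genes, WT replicate 4 the highest for 30, and GCN2KO replicate 1 the lowest for 27. Counts of called genes are therefore given with the range obtained when each library was left out in turn. The ± of a log2 fold change of a single gene is an SE and not such a range.

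In unwounded cells 40 of the 43 genes were higher in GCN2KO than in WT cells and 1, ATF6B, was lower (adjusted p of at most 0.05, edgeR's quasi-likelihood test with Benjamini-Hochberg adjustment over all genes tested). Of all 15348 genes tested 33.4% were higher and 33.1% lower by the same rule. With the study's further threshold for a DE gene, a log2 fold change of at least 1, 30 of the 43 were higher against 8.21% of all genes. The median log2 fold change of the 43 was 1.30, and that of all genes tested was 0.0042. In 39 genes every GCN2KO unwounded sample lay above every WT unwounded sample, as in 26.3% of all genes tested, and in 1 every sample lay below, as in 27.0%. UGGT1, the glucosyltransferase that returns misfolded glycoproteins to the lectin cycle, and PDIA5, a disulfide isomerase, were the 2 genes without a call. When single libraries were left out the number of calls was 41 to 42, and 29 to 31 genes passed the fold threshold. The study drew UPR genes as changed in unwounded GCN2KO cells from these same samples, so the direction of this list is not independent evidence.

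The 43 genes took 1.37% to 1.98% of all gene counts in WT unwounded libraries, 2.34% to 2.86% in WT libraries after HDW, 4.18% to 4.98% in GCN2KO unwounded and 3.92% to 4.82% in GCN2KO libraries after HDW. HSPA5 alone accounted for 0.199% to 0.336%, 0.509% to 0.644%, 1.08% to 1.39% and 0.974% to 1.29% in the same order. The shares of the 3 other groups lay wholly above those of WT unwounded libraries, and those of both GCN2KO groups wholly above those of both WT groups.

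**Figure D1:**
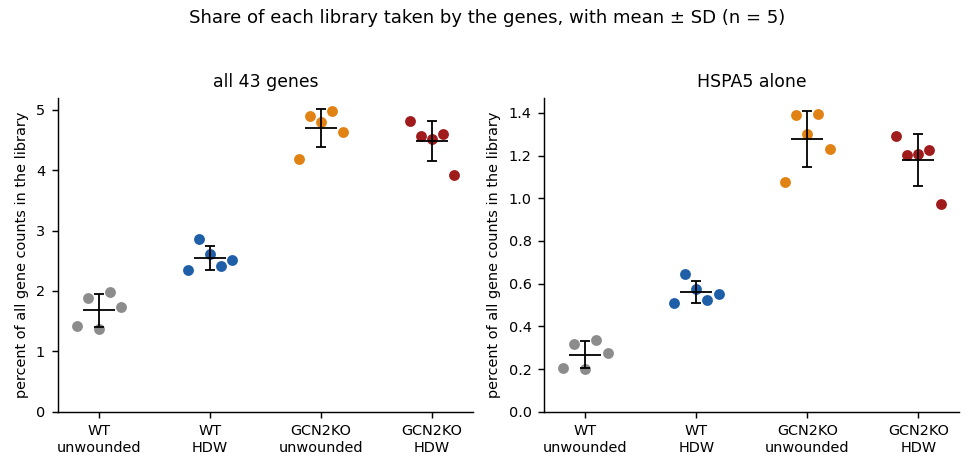
Percent of all gene counts in each library (vertical axis, from 0) taken by the 43 genes together (left) and by HSPA5 alone (right), with points for the 5 libraries of each group and bars for mean ± SD. The 43 genes took 1.37% to 1.98% in WT unwounded and 4.18% to 4.98% in GCN2KO unwounded libraries, and WT libraries after HDW lay between, at 2.34% to 2.86%.

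The genotypes also differed after HDW, by less. There 35 of the 43 genes were higher in GCN2KO than in WT cells and 3 were lower (PDIA5, DERL3 and ATF6B), where 35.9% of the 15855 genes tested were higher and 35.8% lower. Only 6 of the 43 passed a log2 fold change of at least 1, against 7.1% of all genes: FKBP14, CANX, DNAJB9, HSPA13, SELENOS and HSPA5. The median log2 fold change was 0.55, against 0.0020 over all genes tested. In 32 genes every GCN2KO sample lay above every WT sample and in 2 below, as in 27.9% and 29.3% of all genes. The calls numbered 37 to 39 when single libraries were left out and 39 without GCN2KO HDW replicate 5.

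HDW raised 37 of the 43 genes in WT cells and lowered 1, ATF6B, where 26.1% of the 15348 genes tested were higher and 25.2% lower. Of these, 7 passed a log2 fold change of at least 1, against 2.62% of all genes: DERL3, SDF2L1, HERPUD1, HYOU1, HSPA5, DNAJB11 and MANF. The median was 0.60, against -0.0024 over all genes tested. In 35 genes every WT HDW sample lay above every WT unwounded sample, as in 19.2% of all genes, and in 1 below, as in 17.7%. FKBP14, EDEM2, DERL1, OS9 and ERLEC1 were not called. Leaving out single libraries gave 37 to 39 calls, of which 5 to 8 passed the fold threshold.

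In GCN2KO cells the same wounding gave 3 calls, the rise of EDEM3 by 0.31 ± 0.08 and the falls of PDIA6 (-0.21 ± 0.07) and EDEM2 (-0.29 ± 0.08), with adjusted p values of 0.0163, 0.0332 and 0.0204 (log2 fold change ± SE, edgeR). Of the 15791 genes tested 11.9% were higher and 10.8% lower. The median of the 43 was -0.02, against -0.00097 over all genes tested, and the values ran from -0.42 for DNAJB9 to 0.32 for FKBP14. In no gene did every GCN2KO HDW sample lie above every GCN2KO unwounded sample, and in 2 every sample lay below, as did 7.52% and 7.65% of all genes. The number of calls depended on single libraries, and was 9 without GCN2KO unwounded replicate 2, 7 without GCN2KO unwounded replicate 1, 5 without GCN2KO HDW replicate 5 and 1 without GCN2KO unwounded replicate 5. EDEM3 was called whichever library was left out, and no gene passed a log2 fold change of 1 in any of these fits.

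The responses of the genotypes to HDW were compared through an interaction term fitted over all 20 samples, which is the log2 response of GCN2KO cells minus that of WT cells. It was negative and called for 33 of the 43 genes and positive and called for 1, ATF6B, where 12.5% of the 16536 genes tested had a negative and 11.2% a positive call. The median was -0.59, against -0.0090 over all genes tested, and 11 genes had a called value of -1 or less, against 2.15% of all genes. The genes without a call were UGGT1, FKBP14, EDEM3, DERL1, OS9, SEC61A1, SEC61B, CREB3L2 and WFS1. Leaving out single libraries gave 34 to 37 calls. The 4 pairwise comparisons share their groups in pairs, and the interaction is built from the same samples, so the counts above are not independent of one another. Set side by side without a test, all 5 WT HDW samples lay below all 5 GCN2KO unwounded samples in 32 genes, as in 26.2% of the 16536 genes, and above them in 2, PDIA5 and ATF6B, as in 26.3%.

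**Figure D2:**
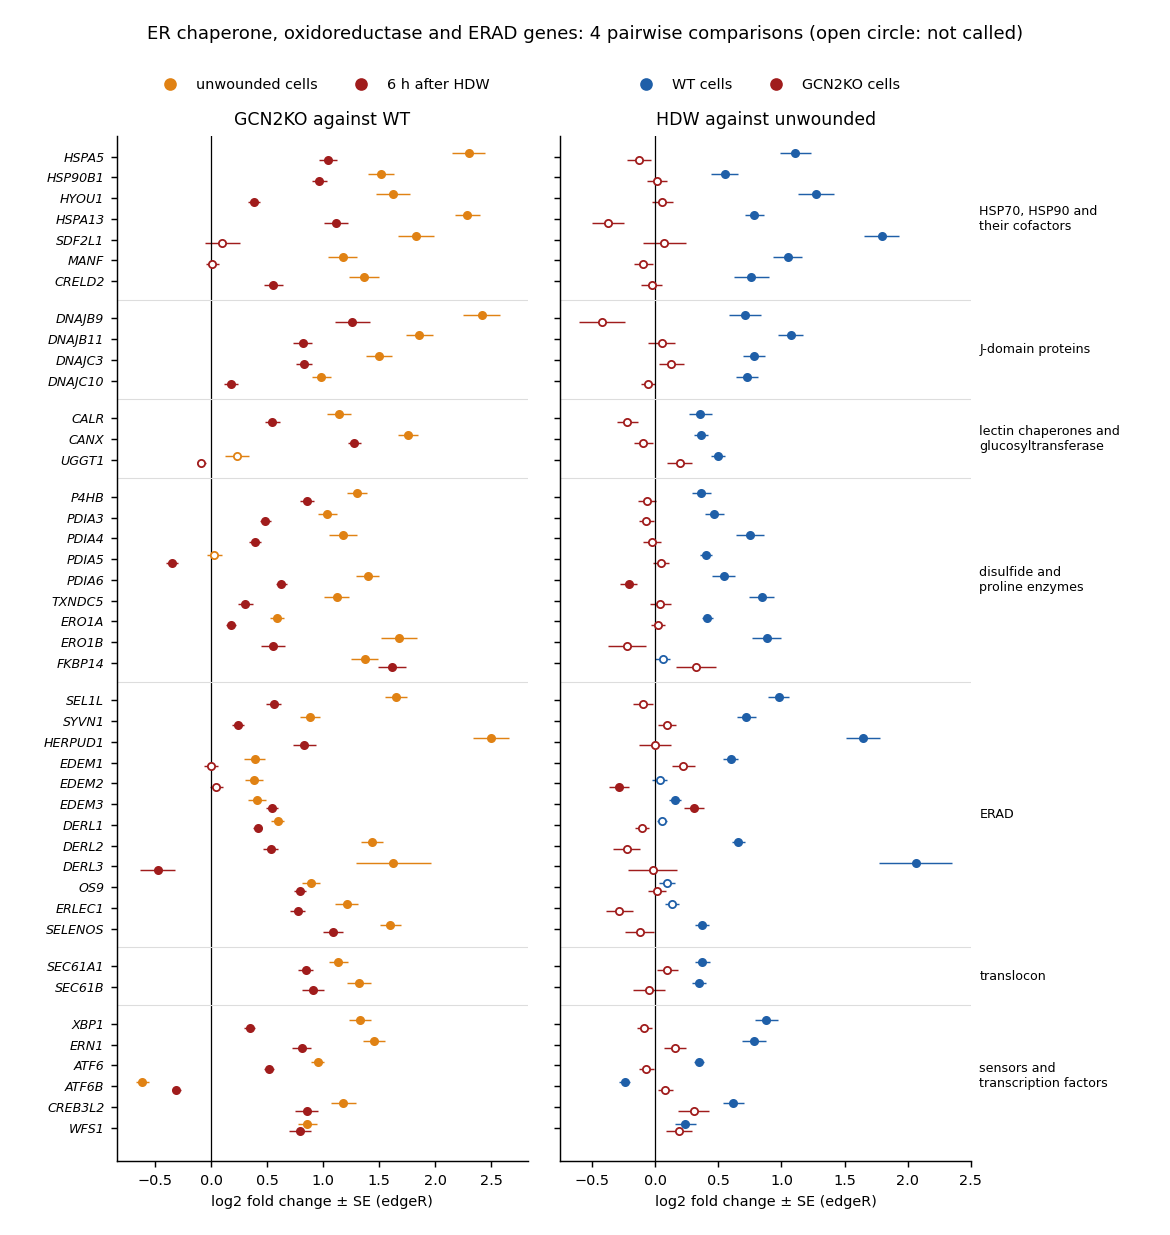
Log2 fold change ± SE (horizontal axes) of each of the 43 genes, grouped by role, for GCN2KO against WT cells, unwounded or 6 h after HDW (left), and for HDW against unwounded cells of each genotype (right). Filled circles were called at an adjusted p of at most 0.05, with 40 higher and 1 lower in unwounded GCN2KO cells, 35 and 3 after HDW, 37 and 1 for HDW in WT cells, and 1 and 2 for HDW in GCN2KO cells.

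HSPA5 (ENSG00000044574, chromosome 9, 125234853 to 125241382, minus strand, GRCh38) encodes BiP, the HSP70 of the ER lumen and the main repressor of the UPR sensors. Its normalized read counts were 57569.6, 89759, 56948, 95290.4 and 78724 in WT unwounded samples 1 to 5 and 311876, 400339, 390242, 398181 and 352844 in GCN2KO unwounded samples. The groups did not overlap, and the log2 fold change was 2.30 ± 0.14 (adjusted p = 1.20e-09), a 4.90-fold ratio of means. After HDW the WT samples had 148335, 185327, 167663, 153669.5 and 163381 and the GCN2KO samples 370331, 345339, 344840.0, 349226 and 275599. All WT samples after HDW exceeded all WT unwounded samples (1.11 ± 0.13, adjusted p = 2.70e-06) and stayed under all GCN2KO samples. In GCN2KO cells the difference with HDW was -0.13 ± 0.10 (adjusted p = 0.348), with GCN2KO HDW replicate 5 below the other 9 GCN2KO samples, and the interaction was -1.25 ± 0.17 (adjusted p = 1.16e-05).

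HSPA13 (ENSG00000155304, chromosome 21, 14371115 to 14383484, minus strand), a microsome-associated HSP70 relative, had 916, 939, 924, 980.2 and 1004 counts in WT unwounded and 3588, 4107, 5963, 4345 and 5191 in GCN2KO unwounded samples. These groups stood far apart, at 4.87-fold (2.29 ± 0.11, adjusted p = 9.13e-11), while the WT samples differed little among themselves. After HDW it had 1453, 2032, 1636, 1506 and 1604 in WT and 4097, 3581, 3588, 3810.1 and 2697 in GCN2KO samples. All WT HDW samples lay above all WT unwounded samples (0.78 ± 0.08), and in GCN2KO cells the difference of -0.37 ± 0.13 missed the threshold (adjusted p = 0.0516). It was called by DESeq2 (adjusted p = 0.0249) and when 1 of 3 libraries was left out, GCN2KO unwounded replicate 1 or 2 or GCN2KO HDW replicate 1. In edgeR it was also called with DESeq2 size factors (0.0464), no filter on low counts (0.0070) and all 20 samples in 1 fit (0.0112).

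The other members of this group were all higher in unwounded GCN2KO cells, and 3 of these 5 remained so after HDW. SDF2L1, and below PDIA5, FKBP14, EDEM3 and DERL3, are given sample by sample as exceptions to the common pattern, a choice made after their values were seen. HSP90B1, the ER HSP90 also called GRP94, was higher in GCN2KO cells by 1.51 ± 0.12 unwounded and 0.96 ± 0.07 after HDW. HYOU1, a nucleotide exchange factor of BiP, was higher by 1.62 and 0.38, and CRELD2, a disulfide isomerase-like cofactor, by 1.36 and 0.55. SDF2L1, a cofactor that works with BiP and ERdj3, had 783, 1076, 570.0, 970.0 and 784 in WT unwounded, 2474, 3605, 3232, 2586 and 2547 in WT HDW, 1986, 2679, 3210.1, 3372 and 3527 in GCN2KO unwounded and 4083, 3564, 3047, 2638 and 2104 in GCN2KO HDW samples. WT unwounded samples lay below the others, which overlapped among themselves. SDF2L1 and MANF, a secreted BiP-binding factor, were higher in GCN2KO cells when unwounded (1.83 and 1.17), and after HDW their values of 0.10 ± 0.15 and 0.01 ± 0.06 were not called (adjusted p = 0.579 and 0.895). In WT cells HDW raised them by 1.79 and 1.05. The interaction was called for all 7 members, from -0.54 for HSP90B1 to -1.73 for SDF2L1.

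J-domain proteins stimulate the ATPase of HSP70s. DNAJB9 (ENSG00000128590, chromosome 7, 108569867 to 108574850, plus strand), which encodes ERdj4, a co-chaperone that recruits BiP to IRE1α, had 682, 960.0, 684, 871 and 939.8 counts in WT unwounded and 2973, 3542, 5926, 4237 and 5319.8 in GCN2KO unwounded samples. The ratio of means was 5.32 and the groups did not overlap (2.41 ± 0.17, adjusted p = 3.17e-09). After HDW the values were 1114, 1804, 1457, 1181 and 1258 in WT and 4053, 3409, 3293, 3444 and 2120.3 in GCN2KO samples. GCN2KO samples were again all higher (1.26 ± 0.16), with GCN2KO HDW replicate 5 the lowest of them. HDW raised it in WT cells (0.71 ± 0.13, adjusted p = 2.40e-04), and in GCN2KO cells the value was -0.42 ± 0.18 (adjusted p = 0.103). In edgeR that fall was called with no filter on low counts (0.0135), all 20 samples in 1 fit (0.0494) and without GCN2KO unwounded replicate 1 (0.0422).

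DNAJB11 (ENSG00000090520, chromosome 3, 186567403 to 186585800, plus strand), which encodes ERdj3, a co-chaperone that delivers nascent chains to BiP, had 1944, 2739, 1945, 2918 and 2621 in WT unwounded and 6885, 9050.0, 9391, 9701 and 8971 in GCN2KO unwounded samples. The difference was 1.86 ± 0.12 (adjusted p = 1.79e-09), with GCN2KO unwounded replicate 1 well below the other 4. After wounding the values were 4842, 5671, 5371, 4957 and 4861 in WT and 10443, 9671, 8894, 9197 and 7097 in GCN2KO samples. WT cells rose by 1.07 ± 0.10 and GCN2KO cells differed by 0.05 ± 0.11. DNAJC3, the co-chaperone p58IPK, and DNAJC10, a reductase with a J-domain also called ERdj5, were higher in unwounded GCN2KO cells by 1.49 and 0.98. After HDW they were higher by 0.82 and 0.18, the latter with an adjusted p of 0.0199 that rose to between 0.0510 and 0.0588 without WT HDW replicate 1, 4 or 5. All 4 had a negative interaction, from -0.67 to -1.15.

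The lectin chaperones bind monoglucosylated glycoproteins. CANX (ENSG00000127022, chromosome 5, 179678628 to 179731641, plus strand), the membrane-bound calnexin, had 32244, 38539, 32887, 39591 and 38084 in WT unwounded and 109017, 122935, 137521, 121506 and 118612 in GCN2KO unwounded samples. It was 3.36-fold higher in GCN2KO cells (1.75 ± 0.09, adjusted p = 1.04e-10). The 91 genes tested within 10 Mb of it on chromosome 5 had a median of 0.31 (log2 fold change) in the same comparison, with 56.0% of them higher (93 genes, 0.29 and 60.2% after HDW), and the part of that in the result was not tested. After HDW CANX had 44517, 49681, 47229, 46336 and 46409.7 in WT and 121237, 113704, 115310.1, 117366 and 99764 in GCN2KO samples. It kept a difference of 1.28 ± 0.06, and its response to HDW was 0.37 ± 0.06 in WT and -0.09 ± 0.08 in GCN2KO cells.

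CALR (ENSG00000179218, chromosome 19, 12938578 to 12944489, plus strand), the soluble calreticulin, had 72162, 95890.0, 68578, 97650.2 and 88073 in WT unwounded and 165582, 171295, 207012, 186952 and 197315 in GCN2KO unwounded samples. GCN2KO samples were all higher, at 2.20-fold (1.14 ± 0.11, adjusted p = 1.35e-07). After HDW the values were 99563, 120795, 114302, 99274 and 107914 and 172294, 165978, 156591, 157249 and 138500.2. The difference between genotypes had then come to 0.55 ± 0.07, and the response to HDW was 0.36 ± 0.09 in WT and -0.22 ± 0.08 in GCN2KO cells (adjusted p = 0.00403 and 0.067). The latter was called by DESeq2 (0.0217) and, in edgeR, without GCN2KO unwounded replicate 1 (0.0479) or 2 (0.04996). UGGT1 differed by 0.23 ± 0.11 between unwounded genotypes (adjusted p = 0.0666). It was called without WT unwounded replicate 4 or GCN2KO unwounded replicate 3 or 5, with adjusted p values of 0.0162 to 0.0367. In edgeR it was also called with no filter on low counts (0.0221), all 20 samples in 1 fit (0.0243) and a replicate block (0.0298). After HDW the value of -0.09 ± 0.04 was not called (adjusted p = 0.0725). It was called lower in GCN2KO cells without WT HDW replicate 1 (0.0367) or GCN2KO HDW replicate 5 (0.0072). HDW raised UGGT1 in WT cells by 0.50 ± 0.06 (adjusted p = 2.91e-06).

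Of the 9 disulfide and proline enzymes 8 were higher in unwounded GCN2KO cells and 7 of them by a log2 fold change of at least 1. ERO1B (ENSG00000086619, chromosome 1, 236214681 to 236282019, minus strand), an oxidase that recharges the disulfide isomerases, had 568, 883, 502, 837 and 659 in WT unwounded and 1572, 1890.0, 2619.9, 2157 and 2746 in GCN2KO unwounded samples. The ratio was 3.18 (1.68 ± 0.16, adjusted p = 1.65e-07), with a wide spread in GCN2KO samples. HDW samples had 1188, 1360.2, 1359, 1203 and 1277 in WT and 2287, 1911, 1854, 2003 and 1308 in GCN2KO samples. Here the groups overlapped through GCN2KO HDW replicate 5, at 0.55 ± 0.11 (adjusted p = 4.38e-04), and HDW raised the gene in WT cells by 0.88 ± 0.11.

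PDIA6 (ENSG00000143870, chromosome 2, 10783391 to 10837977, minus strand), a disulfide isomerase that binds BiP, had 13573, 18972, 14033, 20017 and 17566 in WT unwounded and 41151, 43410.4, 48825, 42239 and 45169.8 in GCN2KO unwounded samples, a difference of 1.40 ± 0.10 (adjusted p = 8.39e-09). At 6 h after HDW the counts were 22562, 26467, 25312, 23245 and 25358 in WT and 38381, 38795, 37640.2, 38994 and 35678 in GCN2KO samples. All WT HDW samples lay above all WT unwounded samples (0.54 ± 0.09), and all GCN2KO HDW samples lay below all GCN2KO unwounded samples. That fall was called with all samples and lost when any 1 of 7 libraries was left out, with adjusted p values up to 0.0819. Exons of other genes overlap 25.2% of its exonic length, with the largest part from ATP6V1C2 on the opposite strand.

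The archetypal isomerases P4HB, PDIA3 and PDIA4 were higher in unwounded GCN2KO cells by 1.30, 1.04 and 1.18 and after HDW by 0.85, 0.48 and 0.39. TXNDC5, a thioredoxin-domain isomerase, was higher by 1.12 and 0.30, with the limit that it held only 207 to 571 normalized read counts. Other genes overlap 61.1% of its exons, with the largest part from a read-through gene on the same strand. ERO1A, the more broadly expressed oxidase, moved least of the called enzymes, by 0.58 ± 0.06 and 0.17 ± 0.04. PDIA5 had 825, 885, 898, 975 and 947 in WT unwounded and 929, 944, 899, 972 and 870.5 in GCN2KO unwounded samples, which overlapped fully (0.03 ± 0.06, adjusted p = 0.727). HDW raised it in WT samples to 1148, 1288, 1257, 1124 and 1216 and GCN2KO samples had 950.0, 1009.7, 918, 965 and 886, below all of them (-0.35 ± 0.05, adjusted p = 2.24e-05).

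FKBP14, a prolyl isomerase for procollagen, was the gene of this group whose response to HDW was not called in WT cells. It had 729, 819, 836, 815 and 859.8 in WT unwounded, 799, 972, 878, 819 and 781 in WT HDW, 1399, 2243, 2524, 2294 and 2001 in GCN2KO unwounded and 3102, 2635, 2823, 2712 and 1735 in GCN2KO HDW samples. Both GCN2KO groups lay above both WT groups. The difference between genotypes was 1.37 ± 0.12 unwounded and 1.61 ± 0.12 after HDW, the interaction was 0.25 ± 0.18 (adjusted p = 0.346), and the response in GCN2KO cells of 0.32 ± 0.16 was called, of all alternatives run, only without GCN2KO HDW replicate 5 (0.44, adjusted p = 0.0274).

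All 12 ERAD genes were higher in unwounded GCN2KO cells and 6 passed a log2 fold change of 1. HERPUD1 (ENSG00000051108, chromosome 16, 56932142 to 56944864, plus strand), a membrane protein that assembles the HRD1 ligase complex, had 1733, 2769, 1569.9, 2622 and 2347 in WT unwounded and 8913, 11726, 14865, 13168 and 13543 in GCN2KO unwounded samples. At 5.63-fold it had the largest ratio of the 43 genes in unwounded cells (2.497 ± 0.16, adjusted p = 1.41e-09). With HDW the counts were 6095, 8264, 7238, 6485 and 6577 in WT and 14110.2, 13020.1, 12617, 12442 and 9433 in GCN2KO samples. WT samples rose 3.14-fold (1.65 ± 0.13, adjusted p = 7.91e-08) and those of GCN2KO cells overlapped before and after (0.00 ± 0.13, adjusted p = 0.987). The interaction, -1.66 ± 0.20 (adjusted p = 2.28e-06), was among the 3 with the smallest adjusted p.

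SEL1L (ENSG00000071537, chromosome 14, 81471547 to 81533853, minus strand), the adaptor that links luminal substrates to the HRD1 ligase, had 4739.7, 6178, 4776, 6449 and 5703 in WT unwounded and 14835, 18641, 18447, 17817 and 17449 in GCN2KO unwounded samples. The difference was 1.65 ± 0.10 (adjusted p = 5.05e-10). In wounded cells the counts were 10066, 12403, 11304, 10461 and 10749.6 in WT and 16989, 16215, 16396, 17360.3 and 13923 in GCN2KO samples. All WT HDW samples lay above the WT unwounded ones (0.98 ± 0.08), GCN2KO samples overlapped (-0.10 ± 0.08), and the interaction of -1.09 ± 0.12 had the smallest adjusted p of the 43 genes, 6.64e-07. SYVN1, the HRD1 ligase itself, showed 0.88 ± 0.09 between unwounded genotypes, 0.24 ± 0.05 after HDW, 0.72 ± 0.08 for HDW in WT and 0.10 ± 0.07 in GCN2KO cells.

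The mannosidase-like EDEM genes, which mark glycoproteins for disposal, had the smallest differences of the ERAD genes between unwounded genotypes. EDEM1, EDEM2 and EDEM3 were higher in unwounded GCN2KO cells by 0.39, 0.38 and 0.41, and after HDW EDEM1 and EDEM2 were not called (adjusted p = 0.946 and 0.524) whereas EDEM3 was higher by 0.54 ± 0.06. EDEM3 had 1671, 1874, 1689, 1932 and 1742 in WT unwounded and 1862, 2148, 2002, 2044 and 1919 in WT HDW samples. It had 2071, 2649, 2252, 2589 and 2231 in GCN2KO unwounded and 3112, 2951, 2949.7, 2956 and 2541 in GCN2KO HDW samples. The GCN2KO groups overlapped through GCN2KO HDW replicate 5. The lectins OS9 and ERLEC1, which read trimmed glycans, were higher by 0.89 and 1.21 unwounded and by 0.79 and 0.77 after HDW, and neither was called for HDW in WT cells (adjusted p = 0.234 and 0.0518). In edgeR the rise of ERLEC1 was called with no filter on low counts (0.0164) and a replicate block (0.0291). It was also called without WT unwounded replicate 4 or WT HDW replicate 1 or 4 (0.0197 to 0.0424). Other genes overlap 23.9% of the exons of OS9, with the largest part from AGAP2-AS1.

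Derlins form part of the retrotranslocation channel. DERL1 and DERL2 were higher in unwounded GCN2KO cells by 0.59 and 1.43 and after HDW by 0.42 and 0.53, and HDW raised DERL2 in WT cells by 0.66 ± 0.05. DERL3 had 8, 18, 2, 23 and 28 in WT unwounded, 63, 68, 73, 88 and 72 in WT HDW, 55, 32, 54, 67 and 52 in GCN2KO unwounded and 65, 64, 44, 42 and 39 in GCN2KO HDW samples. WT unwounded samples were the lowest and WT HDW samples tended to the top. Its values were 1.62 ± 0.33, -0.48 ± 0.16 and 2.06 ± 0.29 for genotype unwounded, genotype after HDW and HDW in WT cells, with adjusted p values of 4.42e-04, 0.0144 and 2.68e-05. It rests on few counts, and its call after HDW was lost when all 20 samples shared 1 fit (adjusted p = 0.0594). Other genes overlap 77.0% of its exons, with the largest part from SMARCB1 on the opposite strand. SELENOS, a selenoprotein that tethers the p97 ATPase to the channel, was higher by 1.60 ± 0.10 unwounded and 1.09 ± 0.09 after HDW.

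The translocon carries new chains into the ER. SEC61B (ENSG00000106803, chromosome 9, 99222064 to 99230615, plus strand), its β subunit, had 1339, 1618, 1560.2, 1585 and 1455 in WT unwounded and 2896, 3363, 4776, 3859.7 and 3920.0 in GCN2KO unwounded samples, a difference of 1.32 ± 0.11 (adjusted p = 2.02e-08). After HDW it had 1759, 2047, 2006, 1794 and 2029 in WT and 4138, 3707, 3766, 3792 and 2649.9 in GCN2KO samples, and GCN2KO samples were all higher (0.91 ± 0.10). SEC61A1, the channel subunit, was higher by 1.13 and 0.84. HDW raised SEC61A1 by 0.37 and SEC61B by 0.35 in WT cells. The interactions of -0.29 ± 0.11 for SEC61A1 and -0.41 ± 0.15 for SEC61B missed the threshold (adjusted p = 0.0579 and 0.054). They were called by DESeq2 (0.0452 for SEC61A1 and 0.0416 for SEC61B). In edgeR both were called with no filter on low counts (0.0466 and 0.0071).

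XBP1 (ENSG00000100219, chromosome 22, 28794555 to 28800597, minus strand), the transcription factor downstream of IRE1α, had 2886, 4004, 2788, 4011 and 3647 in WT unwounded and 8237, 8563, 9336, 8667 and 8569 in GCN2KO unwounded samples. The groups were separated by a log2 fold change of 1.33 ± 0.10 (adjusted p = 7.43e-09). After wounding the values were 6073, 6881, 6564, 6214 and 6307 in WT and 8495, 8058, 8239, 8341 and 7454 in GCN2KO samples. WT cells had risen by 0.88 ± 0.09 and GCN2KO cells stood at -0.09 ± 0.06 (adjusted p = 0.316), which left a difference between genotypes of 0.34 ± 0.05 and an interaction of -0.98 ± 0.11 (adjusted p = 1.38e-06).

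ERN1 (ENSG00000178607, chromosome 17, 64039080 to 64130819, minus strand) had 407, 455, 356, 491 and 438 in WT unwounded and 1144, 1363, 1024, 1294 and 1062 in GCN2KO unwounded samples. It was 2.74-fold higher in GCN2KO cells (1.45 ± 0.10, adjusted p = 2.93e-09). HDW samples had 614, 898, 776, 718 and 706 in WT and 1240.2, 1236, 1249, 1373 and 1401 in GCN2KO samples. HDW raised it in WT cells by 0.78 ± 0.10, all 5 GCN2KO samples remained higher (0.81 ± 0.08), and the interaction was -0.64 ± 0.13 (adjusted p = 0.00114).

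ATF6 (ENSG00000118217, chromosome 1, 161766298 to 161977574, plus strand) had 2164, 2104, 2255, 2285 and 2255 in WT unwounded and 4333, 4579, 4142, 4151 and 4091 in GCN2KO unwounded samples. The WT samples kept within a narrow range and the difference was 0.95 ± 0.06 (adjusted p = 1.06e-09). At 6 h after HDW the counts were 2676, 3040.1, 2893, 2706 and 2779 in WT and 3873, 3944, 4038, 4188 and 4083 in GCN2KO samples. HDW raised it in WT cells by 0.35 ± 0.04, GCN2KO cells differed by -0.07 ± 0.06, and the interaction was -0.43 ± 0.07 (adjusted p = 6.40e-05).

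ATF6B (ENSG00000213676, chromosome 6, 32115264 to 32128253, minus strand), the weaker homologue of ATF6, went the other way and is described in full because it was the single gene lower in GCN2KO unwounded cells, a choice made after its values were seen. It had 3597, 3888, 3537, 3995 and 3844 in WT unwounded and 2524, 2491, 2373, 2570.3 and 2323 in GCN2KO unwounded samples. All GCN2KO samples were lower (-0.62 ± 0.06, adjusted p = 1.99e-07). With HDW the counts were 3089, 3289.9, 3278, 3012 and 3323 in WT and 2421, 2611, 2579.9, 2639.8 and 2633 in GCN2KO samples. All WT HDW samples lay below all WT unwounded samples (-0.24 ± 0.04, adjusted p = 1.59e-04) and its interaction was positive, 0.31 ± 0.07 (adjusted p = 0.00217). CREB3L2, a membrane-bound factor that drives secretory genes, and WFS1, a calcium-handling ER membrane protein, were higher in GCN2KO cells by 1.18 and 0.86 unwounded and 0.85 and 0.79 after HDW, without a called interaction.

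**Figure D3:**
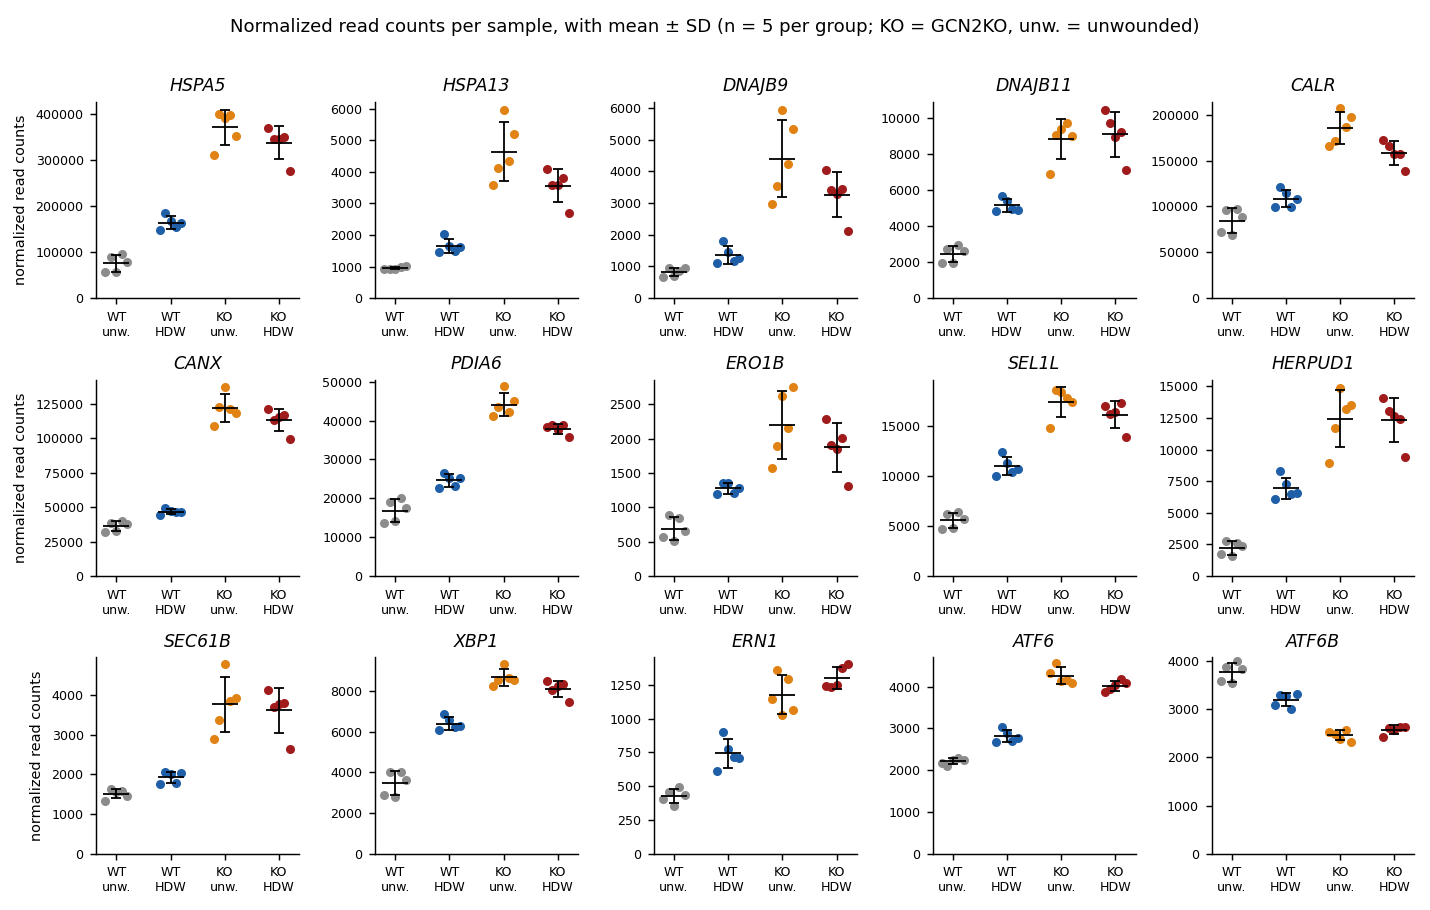
Normalized read counts (vertical axes, from 0) of 15 of the genes given sample by sample in the 4 groups, with a point for each of 5 samples and mean ± SD. Apart from ATF6B, GCN2KO unwounded samples lay above WT unwounded samples in each panel, and WT HDW samples lay between. In GCN2KO HDW cells the lowest point is usually replicate 5, as for HSPA5 at 275599.

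Levels between genes were compared as reads per kilobase of exon and per 1000000 reads. In WT unwounded cells CALR was highest at 1049 ± 167, followed by HSPA5 at 403 ± 94.95, PDIA4 at 257 ± 57.3 and HSP90B1 at 190 ± 37.5. In GCN2KO unwounded cells CALR reached 2304 ± 215 and HSPA5 1975 ± 203 and the ratio of means to WT cells was 2.20 for CALR and 4.90 for HSPA5. The sensors and XBP1 had lower levels than these chaperones. In WT unwounded cells ERN1 stood at 0.78 ± 0.0922, ATF6 at 5.40 ± 0.184 and XBP1 at 39.8 ± 6.83, and in GCN2KO unwounded cells at 2.14 ± 0.266, 10.4 ± 0.49 and 99.6 ± 4.64. The lowest level in each group was that of DERL3, 0.145 ± 0.097 in WT unwounded cells. The length is that of all annotated exons of a gene together, so genes with many unused exons are placed too low.

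**Figure D4:**
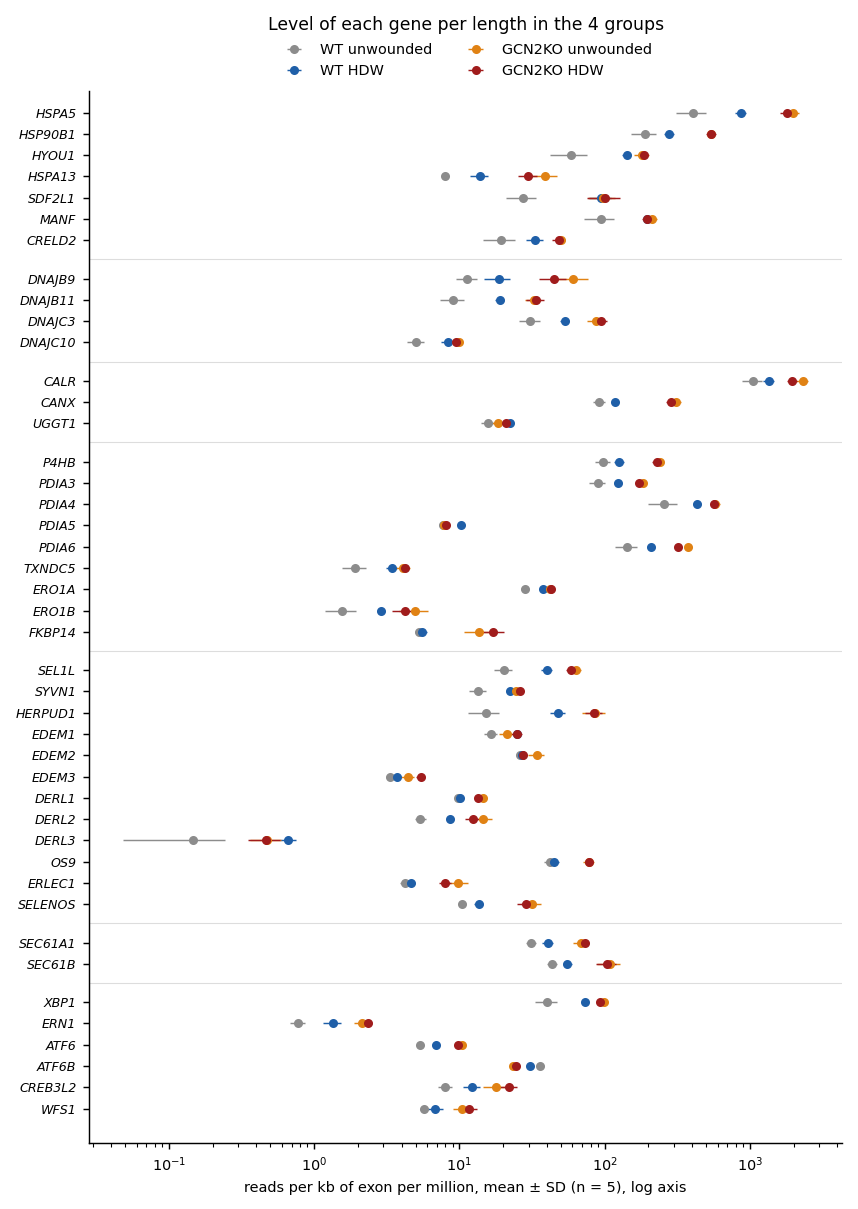
Level of each of the 43 genes in reads per kilobase of exon and per 1000000 reads (horizontal log axis) as the mean of 5 samples in each of the 4 groups, with SD bars and genes grouped by role. CALR and HSPA5 were the highest and DERL3 the lowest in all 4 groups, and ATF6B was the gene with WT unwounded cells highest of the 4.

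The ATF6 and XBP1 proteins act on short promoter elements, and the promoters of these genes were searched because the genes moved together. RefSeq promoter sequences of GRCh38.p14 (250 bases before and 50 after an annotated start) were matched for 39 of the 43 genes, and PDIA3, FKBP14, DERL1 and DERL3 had none in the table. The ER stress response element (ERSE, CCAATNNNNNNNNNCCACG), its shorter relative ERSE-II (ATTGG, any base, then CCACG) and the core of the unfolded protein response element (UPRE, TGACGTGG) were searched as exact letters on both strands. ERSE was found in 8 of the 39 genes, against 0.0916% of the 27305 genes in the table. ERSE-II was found in 3, against 0.0696%, and the UPRE core in 3, against 0.927%. A match is a description of these letters and not evidence of binding. The 43 genes were chosen by known function, and chaperone and ERAD genes are known targets of ATF6 and XBP1. The excess over all genes is therefore not an independent result about them. Most of the 43 genes have no exact match in this window, and 28 of the 39 searched had neither ERSE nor ERSE-II.

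The region before HSPA5 is shown because this gene had the most counts of the 43 in GCN2KO cells and in WT cells after HDW. The bases are given in the direction of transcription, end before the gene as GENCODE draws it, and carry the ERSE match in capitals.
HSPA5, chr9:125241383-125241593, minus strand: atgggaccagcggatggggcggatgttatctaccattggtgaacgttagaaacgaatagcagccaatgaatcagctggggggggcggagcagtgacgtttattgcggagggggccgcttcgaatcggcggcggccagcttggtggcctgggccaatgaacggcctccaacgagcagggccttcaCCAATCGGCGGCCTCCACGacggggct
The other ERSE matches are shown in windows of 30 bases, with the match in capitals. The windows shown for HSP90B1, CRELD2, CANX and PDIA6, and that of the UPRE core of TXNDC5, lie inside the gene as GENCODE draws it. Each is written on the strand of its gene, so that matches on the opposite strand read from CGTGG to ATTGG.
HSP90B1, chr12:103930211-103930240, plus strand: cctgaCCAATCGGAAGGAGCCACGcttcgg
HSP90B1, chr12:103930316-103930345, plus strand: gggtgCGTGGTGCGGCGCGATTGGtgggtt
CRELD2, chr22:49918549-49918578, plus strand: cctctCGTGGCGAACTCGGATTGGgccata
CALR, chr19:12938379-12938408, plus strand: ccacgCGTGGTCGACCATCATTGGtcggtg
CANX, chr5:179698773-179698802, plus strand: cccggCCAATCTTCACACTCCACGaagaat
PDIA6, chr2:10812847-10812876, minus strand: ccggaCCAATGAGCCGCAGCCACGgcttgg
ERO1B, chr1:236282177-236282206, minus strand: gcccgCGTGGTCCCGCCTCATTGGccgccg
XBP1, chr22:28800597-28800626, minus strand: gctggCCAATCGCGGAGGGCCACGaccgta
ERSE-II matches were held by the gene with the largest ratio, HERPUD1, and by SDF2L1 and HYOU1, which has a pair of them. Those of HYOU1 and SDF2L1 lie on the opposite strand.
HYOU1, chr11:119057264-119057293, minus strand: ggcctgggaCGTGGTCCAATgagtacgcgc
HYOU1, chr11:119057370-119057399, minus strand: gccccgtgaCGTGGTCCAATcccaggccga
SDF2L1, chr22:21642105-21642134, plus strand: cctcggaagCGTGGACCAATcaaaaccctc
HERPUD1, chr16:56932016-56932045, plus strand: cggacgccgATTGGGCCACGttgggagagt
The UPRE core of HYOU1 overlaps the farther of its ERSE-II matches. The matches were as follows.
HYOU1, chr11:119057375-119057404, minus strand: cgctggccccgTGACGTGGtccaatcccag
DNAJC10, chr2:182716121-182716150, plus strand: cgcgcacaccgCCACGTCAacctaaaccta
TXNDC5, chr6:7910151-7910180, minus strand: gcactggcggcTGACGTGGcgctcggcggc

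**Figure D5:**
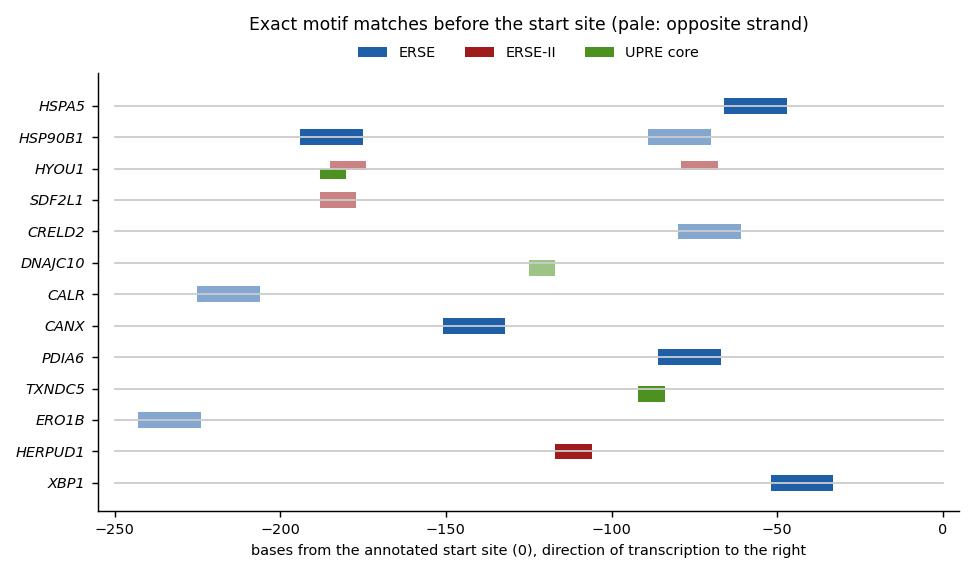
Positions of exact ERSE, ERSE-II and UPRE core matches (bars) in the 250 bases before the annotated start (0 on the horizontal axis) of the 13 genes that hold any, with pale bars for matches on the strand opposite to the gene. ERSE occurred in 8 genes and ERSE-II in 3, with 2 ERSE matches before HSP90B1 and 2 ERSE-II matches before HYOU1.

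The 11 genes with an ERSE or ERSE-II match had a median log2 fold change of 1.62 between unwounded genotypes (1.14 for CALR to 2.497 for HERPUD1), and the 28 others searched had 1.15 (-0.62 for ATF6B to 2.41 for DNAJB9). For HDW in WT cells the medians were 0.88 and 0.55, and for the interaction -0.98 and -0.44. After HDW the medians between genotypes were 0.55 in each set. These values are descriptions, and the ranges of the sets overlap: HSPA13 and DNAJB9, without a match, had values of 2.29 and 2.41 between unwounded genotypes beside 2.30 for HSPA5.

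The neighbouring genes of the pathway moved less uniformly. The counts that follow for unwounded cells stand beside 33.4% of all genes tested higher and 33.1% lower in GCN2KO cells. Of 28 translocation, signal peptidase and N-glycosylation genes, 25 were higher and 2 lower in unwounded GCN2KO cells (median 0.91), led by the signal peptidase subunit SEC11C (2.48 ± 0.15) and the translocon-associated SSR3 (1.72 ± 0.10). Of 14 further ER thiol enzymes tested, 11 were higher, led by AGR2 (3.48 ± 0.16), an isomerase of secretory epithelia, and the peroxiredoxin PRDX4 (2.03 ± 0.14). Of 22 other ER chaperones and prolyl isomerases 10 were higher and 8 lower, with FKBP11 at 2.22 ± 0.12 and FKBP10 at -3.51 ± 0.21. Of 21 other ERAD genes 11 were higher and 1 lower, with the ubiquitin-conjugating enzyme UBE2J1 at 1.29 ± 0.07. All 8 genes listed as PERK-arm targets were higher, with a median of 2.14, above the 1.30 of the 43 genes. They were led by TRIB3 (3.69 ± 0.19) and ATF3 (3.24 ± 0.15). The label is a name of the list, and the activity of PERK was not measured. The list holds ATF4, which the study describes as downstream of several eIF2α kinases. It also holds ATF3, which the study counts among NRF2 targets.

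Of 9 other UPR regulators tested 4 were higher and 4 lower between unwounded genotypes. EIF2AK3, the gene of PERK, was higher by 0.87 ± 0.07. The secretory-cell factor BHLHA15 had 5.76 ± 0.45, a value set against WT counts too low for the filter. It passed that filter through GCN2KO samples, and only 8 of these regulators were tested for HDW in WT cells. After HDW the same lists gave 22 higher of 28 translocation and glycosylation genes, 8 of 14 thiol enzymes, 10 of 22 chaperones, 12 of 21 ERAD genes and 6 of 8 PERK-arm targets in GCN2KO against WT cells, and 4, 3, 8, 4 and 0 lower, where 35.9% of all genes were higher and 35.8% lower. In WT cells HDW raised 19, 8, 6, 7 and 6 genes of these lists and lowered 1, 1, 4, 5 and 1, where 26.1% of all genes rose and 25.2% fell. Those raised included TRIB3 by 2.62 ± 0.22 and the glutathione-degrading CHAC1 by 2.23 ± 0.16. In GCN2KO cells it raised 0, 1, 0, 1 and 0 of them and lowered 5, 4, 4, 4 and 3, where 11.9% of all genes rose and 10.8% fell. The interaction was negative and called for 18, 11, 8, 6 and 6, with TRIB3 at -2.79 ± 0.25 and CHAC1 at -2.15 ± 0.18. It was positive and called for 0, 0, 0, 1 and 0, where 12.5% of all genes had a negative and 11.2% a positive call. Over all 102 of these genes tested in unwounded cells, 69 were higher and 15 lower, with a median of 0.57 beside 1.30 for the 43.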

How the data were processed

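The files held raw read counts per gene that the authors deposited for 20 samples, made with Trimmomatic 0.36, STAR 2.5.2b and featureCounts of Subread 1.5.2 on GRCh38. The annotation release and strand setting are not given in the sources used here, so reads of overlapping genes cannot be told apart. Of 57500 identifiers 56410 matched GENCODE 44, which gave symbols, positions and exon lengths.

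Counts were filtered with filterByExpr (minimum 10, total 15), scaled by TMM and tested with edgeR 4.0.16 (quasi-likelihood, R 4.3.3) on the samples of each comparison, with all 20 for the interaction. Adjusted p values are Benjamini-Hochberg values over all genes tested, called at 0.05, and SE is the log2 fold change over the root of F. DESeq2 1.42.0, other scalings, filters, a replicate block and leaving out each library were alternatives. The code was tested on simulated data. Promoters were searched in Python 3.11.

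Genes given sample by sample were HSPA5, XBP1, ERN1, ATF6, the 2 largest called changes of each role in unwounded cells (1 for the translocon) and the 3 smallest interaction p. ATF6B, SDF2L1, PDIA5, FKBP14, EDEM3 and DERL3 were added after their values were seen. Other pathway genes were the 2 largest called changes of a list at most. The members and lists were chosen with earlier results of these data known.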

Additional observations from a re-analysis of the deposited data

Results flagged for a closer look

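Of 172 groups of 5 samples examined, 8 held a sample whose gap to the nearest other, divided by the range of the group, passed Dixon's 95% critical value of 0.71. Chance gives about 1 in 20. In GCN2KO HDW replicate 5 the normalized read count was 275599 for HSPA5 (344840.0 to 370331 in the other 4), 32942 for HYOU1 (37115 to 37484 in the other 4), 5972 for CRELD2 (7337 to 7887 in the other 4), 4078 for EDEM1 (4862 to 5161 in the other 4), 2541 for EDEM3 (2949.7 to 3112 in the other 4) and 2649.9 for SEC61B (3707 to 4138 in the other 4). DNAJB11 had 6885 in GCN2KO unwounded replicate 1 (8971 to 9701) and ATF6B 2421 in GCN2KO HDW replicate 1 (2579.9 to 2639.8). Without GCN2KO HDW replicate 5, 39 of the 43 genes were called between genotypes after HDW, 5 for HDW in GCN2KO cells and 35 for the interaction.

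The response to HDW differed between genotypes, by the interaction term of edgeR's quasi-likelihood test, for 34 genes. Those past -1 on the log2 scale had -2.10 for DERL3, -1.73 for SDF2L1, -1.66 for HERPUD1, -1.25 for HSPA5, -1.23 for HYOU1, -1.17 for HSPA13, -1.16 for MANF, -1.15 for DNAJB9, -1.12 for ERO1B, -1.09 for SEL1L and -1.03 for DNAJB11. The next were -0.98 for XBP1, -0.90 for DERL2, -0.81 for TXNDC5, -0.81 for CRELD2, -0.80 for DNAJC10, -0.79 for PDIA4, -0.77 for PDIA6, -0.67 for DNAJC3, -0.64 for ERN1, -0.64 for SYVN1 and -0.59 for CALR. The smallest negative values were -0.55 for PDIA3, -0.54 for HSP90B1, -0.51 for SELENOS, -0.47 for CANX, -0.44 for P4HB, -0.43 for ERLEC1, -0.43 for ATF6, -0.41 for ERO1A, -0.39 for EDEM1, -0.37 for PDIA5 and -0.34 for EDEM2. The positive value was 0.31 for ATF6B. Of all 16536 genes tested 12.5% had a negative and 11.2% a positive call.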

How the results depend on the processing

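Counts of called genes stayed within 1.5 times their value under DESeq2, other scalings, other filters on low counts and the pooled fit, with the exception of HDW in GCN2KO cells. There the count of 3 became 6 under DESeq2, 6 with no filter, 9 when all 20 samples shared 1 fit, and 1 to 9 with single libraries left out. With a log2 fold change of at least 1 required as well, the counts were 30 between unwounded genotypes, 6 between genotypes after HDW, 7 for HDW in WT cells, 0 for HDW in GCN2KO cells and 11 for the interaction. Same-numbered samples did not deviate together (correlations of -0.33 to 0.13), so the numbers were not taken to pair them. A replicate block gave 42, 38, 39, 1 and 35 calls in that order.

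The sign turned only for genes without a call. With library size alone the log2 fold change was -0.0094 for PDIA5 between unwounded genotypes, 0.027 for EDEM1 after HDW, -0.0041 for EDEM2 for HDW in WT and 0.010 for HERPUD1 for HDW in GCN2KO cells, the last 0.0039 with the replicate block. After HDW MANF had -0.017 with no filter and EDEM1 0.0028 with a mean of at least 50 counts. With single libraries left out the range for HDW in GCN2KO cells was -0.073 to 0.030 for CRELD2, -0.13 to 0.096 for DERL3, -0.025 to 0.13 for DNAJB11, -0.10 to 0.078 for HERPUD1, -0.014 to 0.066 for HSP90B1, -0.030 to 0.046 for OS9, -0.055 to 0.0089 for PDIA4, -0.047 to 0.18 for SDF2L1, -0.13 to 0.042 for SEC61B and -0.0094 to 0.073 for TXNDC5. It was -0.035 to 0.050 for EDEM1, -0.019 to 0.044 for MANF and -0.024 to 0.21 for SDF2L1 between genotypes after HDW, -0.0080 to 0.070 for EDEM2 for HDW in WT, -0.0099 to 0.052 for PDIA5 between unwounded genotypes and -0.12 to 0.0098 for WFS1 for the interaction. Some calls were lost, with adjusted p values from edgeR. With library size alone or all 20 samples in 1 fit, HDW in WT cells lost WFS1 (0.0548 and 0.0562) and EDEM3 (0.0569 and 0.0668), and with library size alone the interaction lost EDEM1 (0.0524). WFS1 was also lost without WT unwounded replicate 5 (0.0670) or WT HDW replicate 3 (0.0560). For HDW in GCN2KO cells PDIA6 was lost with no filter (0.0705) and, with EDEM2, under the replicate block (0.104 and 0.0596), and EDEM2 without GCN2KO unwounded replicate 5 (0.0517). Calls were also gained. For HDW in GCN2KO cells 29 pairs of gene and alternative had a call that the main fit lacked. They were falls of HSPA13, DNAJB9, CALR, DERL2 and ERLEC1 and rises of UGGT1, FKBP14, EDEM1 and CREB3L2. For the interaction there were 23 such pairs, all negative, of UGGT1, DERL1, SEC61A1 and SEC61B. There were 6 for UGGT1 between unwounded genotypes, 5 for ERLEC1 for HDW in WT cells and 2 for UGGT1 between genotypes after HDW. The cause was not tested. Counting depth limits DERL3, with 2 to 28 normalized reads in WT unwounded samples.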
